A study of Mus musculus with 10 samples.

Results

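The 10 genes described here make or limit nitric oxide, handle its methylated inhibitor ADMA, form the endothelin pathway, or receive nitric oxide as a signal. They were chosen by symbol, as Nos3, Nos1, Ddah1, Ddah2, Prmt1, Edn1, Ednra, Ednrb, Ece1 and Gucy1a3, and all 10 were found among the 23303 entries of an expression table. The table holds RNA sequencing of the left ventricle from 10 male mice of strain 129X1/SvJ, of which 5 had surgery that the labels enter as CKD (chronic kidney disease) and 5 as Sham. No transgene or drug is named for either group. The kind of CKD surgery, the age of the mice and the time since surgery are not given in the sources used here. The series concerns uremic cardiomyopathy, the heart disease of kidney failure, and the design compares CKD with Sham. Mice are numbered within a group only to name them.

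Nitric oxide is made from arginine by the nitric oxide synthases. In the heart the endothelial enzyme (Nos3) is the main source in vessels, and the neuronal enzyme (Nos1) works inside cardiomyocytes. ADMA, asymmetric dimethylarginine, is released when proteins that carry methylated arginine are broken down. It competes with arginine at the synthases, is broken down by the DDAH enzymes, and is known to accumulate in kidney failure. Endothelin is a constricting peptide that endothelial cells release from a larger precursor after a converting enzyme cuts it. It acts through the receptor ETA on muscle cells, and through ETB, which on endothelium triggers nitric oxide release and clears the peptide. Nitric oxide acts through soluble guanylate cyclase, which makes cGMP.

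No gene of the 10 passed the test between CKD and Sham ventricles. A further endothelin precursor, Edn3, which was on a list of other pathway genes, rose 2.35-fold on the log2(FPKM + 0.5) scale. Values are FPKM, fragments scaled for transcript length and for the size of the library. Nos1 was listed at 0 in every library, which left 9 genes to test. With limma on log2(FPKM + 0.5), 0 of 9 had an adjusted p under 0.05, against 5.29% of all 11651 genes tested. An unadjusted p under 0.05 was found for 2 of 9 (Ddah2 and Nos3), or 22.2%, against 19.5% of all genes. The CKD and Sham values overlapped for all 9 tested genes, where 7.28% of all genes had groups that did not overlap (4.1% with CKD higher and 3.18% with CKD lower). The median difference of the 9 was 0.12 (log2), and that of all tested genes was -0.0035, with 5 of the 9 estimates above 0 and 4 below. The median of the 9 was 0.02 without Sham 5, 0.05 without Sham 1 and 0.06 without CKD 5.

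**Figure D1:**
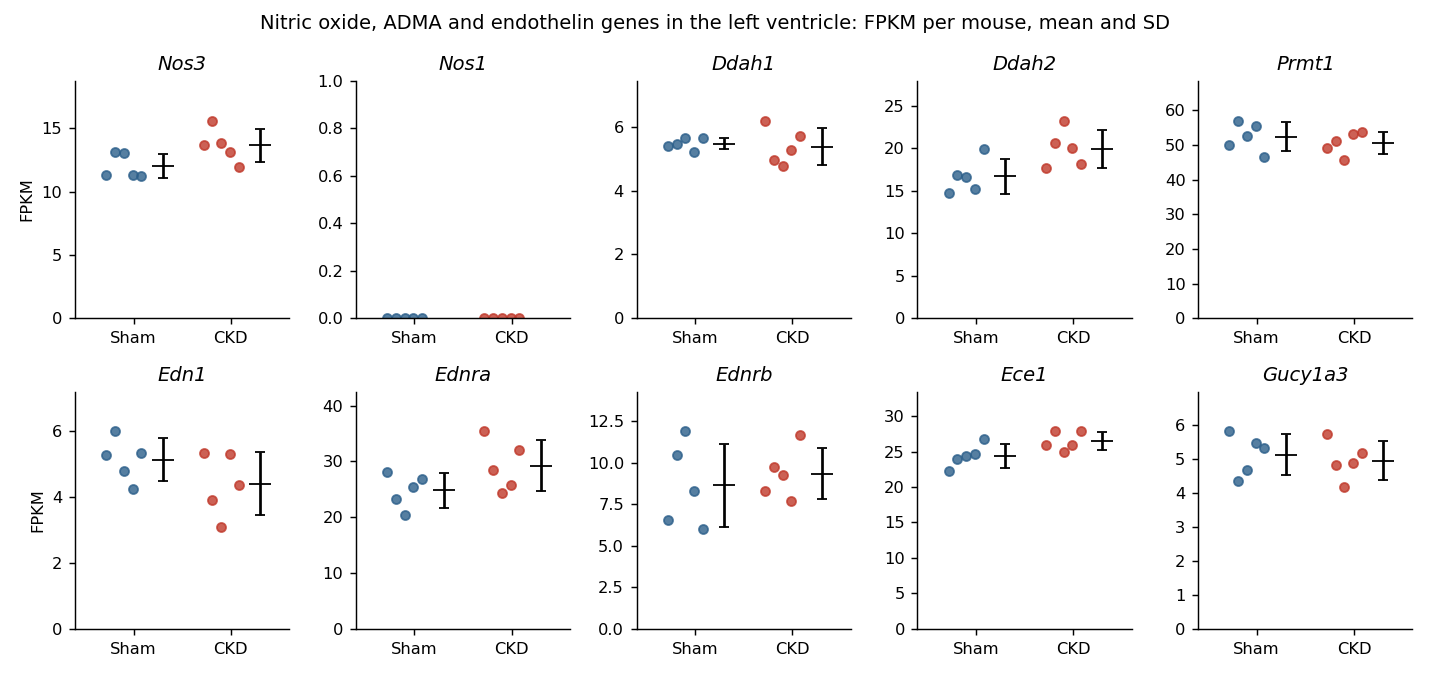
FPKM of the 10 genes in each mouse (points, 5 Sham in blue and 5 CKD in red), with the group mean and SD as a bar beside them; every vertical axis starts at 0. The groups overlap for each of the 9 genes with values, and Nos1 is at 0 throughout.

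The FPKM totals of the libraries were close to each other, but FPKM is already scaled for library size. The totals ranged from 570509 to 605007. Relative depth of the libraries, read from the smallest steps between low values, ran from 0.852 (Sham 1) to 1.15 (CKD 3) times that of Sham 2. On the first principal component over all tested genes (22.9% of the variance) the CKD libraries had loadings from 0.12 to 0.60. Sham 5, at 0.009, lay between them and the other Sham libraries, which ran from -0.44 to -0.25. On the second principal component CKD 1 and Sham 1 had loadings of -0.53 and -0.61, and the remaining libraries lay between -0.04 and 0.40. The 10 most abundant genes took 14.8% and 15.3% of the FPKM in CKD 1 and Sham 1, and 17.6% to 18.2% in the others. Without these 2 libraries, 0 of the 9 genes passed as well with limma. The heart muscle markers Myl2 (20242 FPKM on average in CKD, 20611 in Sham) and Tnnt2 (9541 and 9859) were abundant, while Myh6 and Atp2a2, which cardiomyocytes use throughout, were listed at 0 in all libraries. An entry of 0 is therefore not read as absence of the transcript here.

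The nitric oxide synthases come first. Nos3 lies on chromosome 5 from 24364816 to 24384474 (GRCm38). It was at 13.7, 15.6, 13.9, 13.1 and 11.96 FPKM in CKD 1 to CKD 5. In Sham 1 to Sham 5 it was at 11.3, 13.1, 13.1, 11.3 and 11.3 FPKM. CKD 1, CKD 2 and CKD 3 were above every Sham mouse, and the other CKD mice lay within the Sham range. The means were 13.7 ± 1.33 and 12.03 ± 0.978 FPKM (SD, n = 5 each), a ratio of 1.13 with a 95% interval from 1.00 to 1.27 (log2 0.18, SE 0.08, limma adjusted p = 0.238). Of the exonic bases of Nos3, 25.2% are shared with the antisense gene Gm15587 and 7.12% with Atg9b on the opposite strand. No source used here says whether the authors counted by strand, so reads of these genes cannot be told apart from those of Nos3. Atg9b itself was at 0.531 FPKM on average over the 10 libraries.

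Nos1 lies on the same chromosome from 117866839 to 117958840, and its entry of 0 in all 10 libraries gives no level and no fold change. It is 1 of 5594 entries at 0 in every library. Nos2, the inducible synthase of immune and other stimulated cells, averaged 4.95 ± 1.198 FPKM in CKD against 5.203 ± 0.629 in Sham (log2 -0.09, adjusted p = 0.798).

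ADMA is formed from the products of the type I arginine methyltransferases, of which Prmt1 is the main enzyme. Prmt1 had the highest level of the 10 genes, at 50.6 ± 3.23 FPKM in CKD against 52.4 ± 4.21 in Sham (SD, n = 5 each). Its CKD values ran from 45.8 to 53.7 and its Sham values from 46.7 to 57.1 FPKM. The ratio of 0.967 had a 95% interval from 0.875 to 1.07 (log2 -0.05, limma adjusted p = 0.7504). Leaving out CKD 3 gave -0.01, and leaving out Sham 2, Sham 4 or Sham 5 gave -0.02, -0.03 or -0.09.

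Ddah1 and Ddah2 encode the dimethylarginine hydrolases that clear ADMA. Ddah2 was the more abundant of the pair and had the smallest p of the 10 genes. It was at 17.7, 20.6, 23.2, 19.98 and 18.1 FPKM in CKD 1 to CKD 5, and at 14.7, 16.9, 16.6, 15.2 and 19.9 FPKM in Sham 1 to Sham 5. All 5 CKD mice were above 4 of the Sham mice, and Sham 5 lay among the CKD values. The ratio was 1.19, with a 95% interval from 1.03 to 1.37 (log2 0.25, SE 0.09, unadjusted p = 0.0191, limma adjusted p = 0.151). Without Sham 5 the difference was 0.32 (log2) and the adjusted p = 0.0526, the lowest that any of the 9 genes reached in any alternative run.

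Ddah1 had the lower level and an estimate near 0. It averaged 5.38 ± 0.582 FPKM in CKD against 5.47 ± 0.173 in Sham (SD, n = 5 each; log2 -0.03, SE 0.07, limma adjusted p = 0.894). CKD 1 and CKD 5 lay above all Sham mice and CKD 2 and CKD 3 below them, so the CKD values spanned 4.77 to 6.19 FPKM around a Sham range of 5.22 to 5.64. Within each library Ddah1 minus Ddah2 averaged -1.80 ± 0.290 in CKD and -1.52 ± 0.138 in Sham on the log2 scale. This difference of -0.28 (SE 0.14) gave an exact permutation p = 0.0873, two-sided, and an adjusted p = 0.405 over the 6 within-library differences tested, and it was -0.18 without CKD 3. Prmt1 minus Ddah1, the enzyme that leads to ADMA against 1 that removes it, averaged 3.12 ± 0.141 in CKD and 3.14 ± 0.144 in Sham (exact permutation p = 0.786, adjusted p = 0.810).

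**Figure D2:**
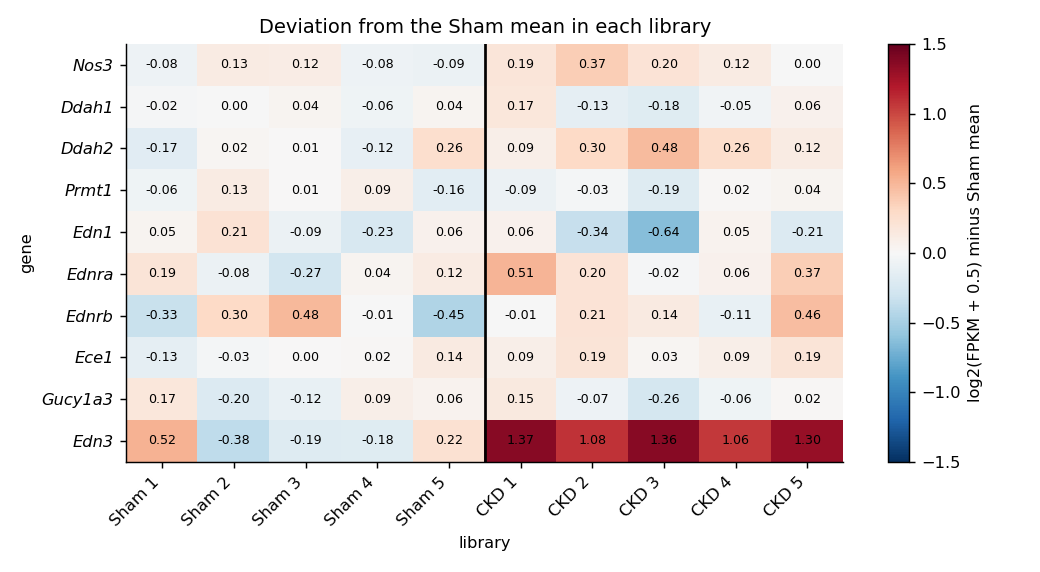
Log2(FPKM + 0.5) of 9 of the genes and of Edn3 in each library, as the deviation from the Sham mean (colour scale and printed value; columns are libraries, Sham on the left of the line). Ddah2 is at 0.09 or more in each CKD mouse and at 0.26 in Sham 5, Ednrb varies within Sham from -0.45 to 0.48, and Edn3 is at 1.06 to 1.37 in CKD.

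Of the endothelin precursors, Edn3 rose and Edn1 did not pass. Edn1, the main endothelin of blood vessels, was at 5.33, 3.91, 3.10, 5.31 and 4.35 FPKM in CKD 1 to CKD 5. In Sham 1 to Sham 5 it was at 5.27, 5.99, 4.77, 4.25 and 5.33 FPKM. CKD 2 and CKD 3 were below every Sham mouse, and no CKD mouse was above the Sham range. The ratio of 0.862 had a 95% interval from 0.703 to 1.06 (log2 -0.21, SE 0.14, limma adjusted p = 0.426). Without CKD 3 the difference was -0.11 (log2).

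Edn3 encodes the precursor of endothelin-3, which is known for its role in neural crest cells and binds ETA less tightly than it binds ETB. It was at 4.58, 3.66, 4.56, 3.62 and 4.37 FPKM in CKD 1 to CKD 5. The Sham 1 to Sham 5 values were 2.33, 1.02, 1.23, 1.24 and 1.80 FPKM, so every CKD mouse was above every Sham mouse. The means were 4.16 ± 0.480 and 1.52 ± 0.537 FPKM (SD, n = 5 each). On the log2(FPKM + 0.5) scale the rise was 2.35-fold, with a 95% interval from 1.85 to 2.99 (log2 1.23, SE 0.16, limma adjusted p = 0.00171). This fold is smaller than the ratio of the FPKM means, as 0.5 is added to low values. In Sham, Edn3 was below the level of Edn1 in all 5 mice, and in CKD it came close to it: Edn3 minus Edn1 averaged -1.50 ± 0.394 in Sham and -0.06 ± 0.360 in CKD (log2). This comparison was added after the rise of Edn3 was seen. Its exact permutation p = 0.00794 is the smallest that 5 against 5 mice can give, and over 7 such differences it became an adjusted p = 0.0556. Edn3 lies on chromosome 2 from 174760619 to 174784042 and Edn1 on chromosome 13 from 42301476 to 42307990. Edn2, the third precursor, had a value above 0 in 4 of 10 libraries and never exceeded 0.160 FPKM.

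The peptides that these genes encode are close relatives, and the bases for the mature peptide show how far the transcripts differ in that stretch. The rest of the transcripts was not compared. The stretches below come from the GENCODE transcripts of GRCm38, 5′ to 3′, with capitals for bases that differ from Edn1.
Edn1: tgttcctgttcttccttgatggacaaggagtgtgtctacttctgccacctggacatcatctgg
Edn2: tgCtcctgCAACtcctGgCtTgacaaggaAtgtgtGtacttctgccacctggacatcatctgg
Edn3: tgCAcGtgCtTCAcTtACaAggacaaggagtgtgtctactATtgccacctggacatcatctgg
Each stretch has 63 bases for 21 residues. Edn3 differs from Edn1 at 13 bases and 6 residues, most of them in the first part of the peptide, and Edn2 differs from Edn1 at 10 bases and 3 residues. The shared end of the peptide, from the run gacaagga on, is nearly the same in all 3 genes.

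**Figure D3:**
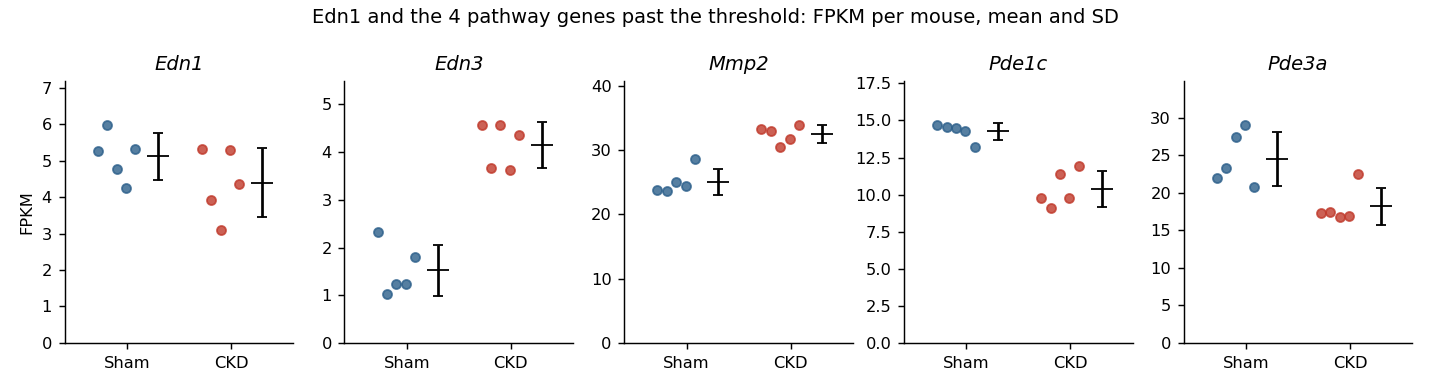
FPKM in each mouse (points, 5 Sham in blue, 5 CKD in red) with group mean and SD for Edn1 and for the 4 other pathway genes past the threshold; every vertical axis starts at 0. The CKD values of Edn3 (3.62 to 4.58) lie above those of Sham (1.02 to 2.33), while those of Edn1 overlap.

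Ece1, the converting enzyme that releases endothelin from its precursor, averaged 26.5 ± 1.31 FPKM in CKD against 24.4 ± 1.65 in Sham (SD, n = 5 each). Its values ran from 24.9 to 27.9 FPKM in CKD and from 22.2 to 26.8 in Sham, and CKD 2 and CKD 5 were above all Sham mice. The ratio was 1.09, with a 95% interval from 0.992 to 1.19 (limma adjusted p = 0.30). Ece2, a related enzyme, was at 8.77 ± 0.758 and 7.40 ± 0.652 FPKM (log2 0.23, adjusted p = 0.118). Mmp2, a matrix metalloproteinase that can cut the endothelin precursor and also collagen, rose 1.29-fold, from 25.1 ± 2.03 to 32.5 ± 1.37 FPKM (adjusted p = 0.00539).

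Ednra, which encodes ETA, was the second most abundant of the 10 genes. It was at 35.4, 28.4, 24.3, 25.8 and 32.1 FPKM in CKD 1 to CKD 5. In Sham 1 to Sham 5 it was at 28.2, 23.2, 20.3, 25.3 and 26.9 FPKM. CKD 1, CKD 2 and CKD 5 were above all Sham mice. The ratio was 1.17, with a 95% interval from 0.988 to 1.39 (log2 0.23, SE 0.11, limma adjusted p = 0.291).

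Ednrb, which encodes ETB, was the most variable of the 9 genes, with a 1.99-fold range over the 10 libraries. It was at 8.33, 9.72, 9.25, 7.70 and 11.7 FPKM in CKD 1 to CKD 5, and at 6.56, 10.4, 11.9, 8.31 and 5.98 FPKM in Sham 1 to Sham 5. All CKD values fell inside the Sham range. The ratio of 1.10 had a 95% interval from 0.846 to 1.43 (limma adjusted p = 0.733), the widest of the 9. Its log2 difference of 0.14 became 0.02, 0.05 or 0.06 when Sham 5, Sham 1 or CKD 5 was left out, and leaving out Sham 2 or Sham 3 gave 0.21 or 0.26. The balance of the receptors, Ednra minus Ednrb, averaged 1.59 ± 0.270 in CKD and 1.504 ± 0.575 in Sham (log2), a difference of 0.09 (SE 0.28, exact permutation p = 0.770, adjusted p = 0.810). Its sign turned without CKD 1 (-0.02), Sham 2 (-0.01) or Sham 3 (-0.10).

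Gucy1a3, named Gucy1a1 in RefSeq, encodes the alpha chain of soluble guanylate cyclase. It averaged 4.96 ± 0.566 FPKM in CKD against 5.13 ± 0.598 in Sham (SD, n = 5 each; log2 -0.05, SE 0.10, limma adjusted p = 0.858). The CKD values ran from 4.18 to 5.73 and the Sham values from 4.37 to 5.82 FPKM. Gucy1b3, the beta chain of the same enzyme, was at 9.81 ± 0.387 and 10.3 ± 0.985 FPKM (adjusted p = 0.654). The difference of the chains within a library was -0.92 ± 0.133 in CKD and -0.95 ± 0.158 in Sham (log2, exact permutation p = 0.810, adjusted p = 0.810).

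Ranked by mean Sham FPKM, which is per transcript length, the order was Prmt1, Ednra (24.8), Ece1 (24.4), Ddah2 (16.7), Nos3 (12.03), Ednrb (8.64), Ddah1 (5.47), Gucy1a3 (5.13) and Edn1 (5.12). The Sham ranges of Ednra and Ece1 overlapped, as did those of Nos3 and Ednrb, of Ddah1 and Gucy1a3, and of Gucy1a3 and Edn1. The other neighbours in this order had Sham ranges that did not overlap. Ednra varied 1.74-fold over all 10 libraries and Edn1 1.93-fold, whereas Prmt1 and Ece1 varied 1.246-fold and 1.255-fold.

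**Figure D4:**
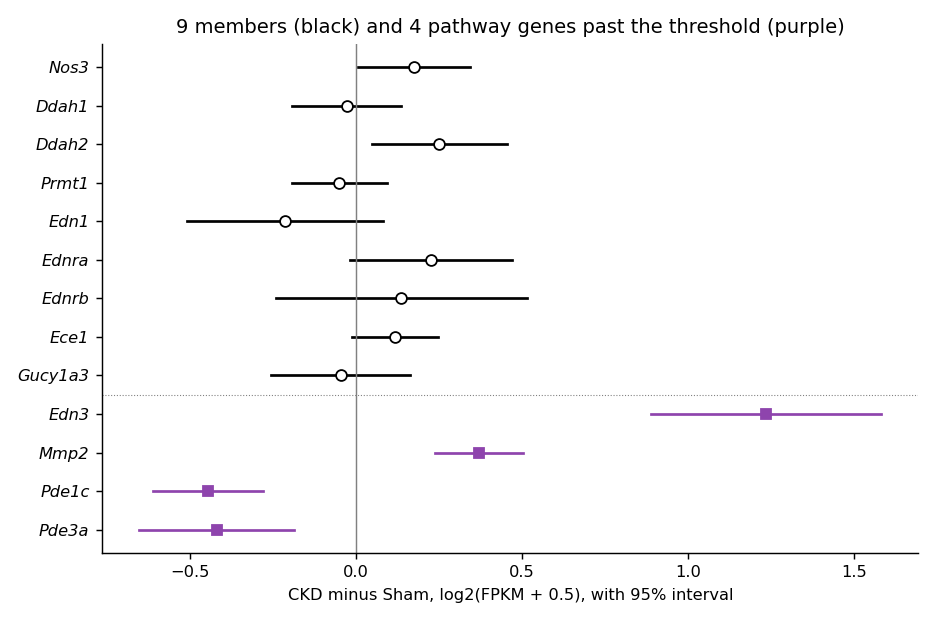
CKD minus Sham difference in log2(FPKM + 0.5) with its 95% interval from limma (horizontal axis) for 9 genes of the set in black and 4 other pathway genes in purple; filled squares passed an adjusted p under 0.05. The upper bounds of the 9 genes reach no further than 0.52, and Edn3 is at 1.23.

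Besides the 10 genes, 5 lists of other genes of these pathways were examined, with 64 of 79 listed genes tested. Of these, 2 rose and 2 fell, 6.25% in all, against 5.29% of all genes tested (3.17% higher and 2.12% lower). Those that rose were Edn3 and Mmp2, and those that fell were the phosphodiesterases Pde1c and Pde3a. Without CKD 1 and Sham 1, the call of Pde3a was lost (adjusted p = 0.0761) and the other 3 passed.

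In the list of nitric oxide synthesis, cofactor and arginine supply, 0 of 22 tested genes passed with limma, and 6 had an unadjusted p under 0.05 (median log2 0.02), where 19.5% of all genes had one. Its most abundant genes were Hsp90ab1, a chaperone that binds Nos3 (639 ± 33.7 FPKM in CKD, 659 ± 89.5 in Sham), Cav1, the caveolin that holds Nos3 at the membrane (171 ± 12.3 and 161 ± 20.2), and Calm2, which encodes calmodulin (128 ± 4.57 and 126 ± 6.53). Gch1, the first enzyme of the cofactor tetrahydrobiopterin, was at 4.42 ± 0.598 and 4.82 ± 0.849 FPKM (adjusted p = 0.705). Closest to the threshold were 3 genes picked after their values were seen. Slc7a1, the main cationic amino acid transporter that brings arginine into cells, averaged 10.7 ± 0.925 FPKM in CKD against 14.4 ± 2.21 in Sham (log2 -0.39, SE 0.10, limma adjusted p = 0.0508). Slc7a2, a second transporter of this family, was at 1.11 ± 0.215 and 1.73 ± 0.318 FPKM (log2 -0.47, adjusted p = 0.0561). Cav3, the muscle caveolin, was at 84.1 ± 3.37 and 74.8 ± 2.58 FPKM (log2 0.17, adjusted p = 0.0533). For Slc7a1, 4 of 5 Sham mice were above all CKD mice, and without Sham 5, whose value of 10.99 FPKM was inside the CKD range, it passed (adjusted p = 0.00861). It also passed with a minimum mean of 5 FPKM (0.0461), with libraries scaled to equal totals (0.0424) and with a robust variance model (0.0445). Slc7a2 passed in 5 alternatives (lowest adjusted p = 0.0379, with quantile normalization) and Cav3 in 1 (0.0458, without a filter).

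Among genes of protein arginine methylation or of ADMA breakdown, 0 of 8 tested genes passed with limma (median log2 0.02). An unadjusted p under 0.05 was found for 1, Prmt3 (log2 -0.15), against 19.5% of all genes. Carm1, a type I enzyme, averaged 22.7 ± 1.63 FPKM in CKD against 23.8 ± 1.17 in Sham, and Prmt7 at 19.7 ± 1.11 and 18.8 ± 0.906. Btg2, a partner of Prmt1 that is also an early response gene, was at 144 ± 18.4 and 164 ± 83.6 FPKM (log2 0.01, SE 0.36, adjusted p = 0.994). Agxt2, a further ADMA-degrading enzyme known from kidney and liver, did not exceed 0.0528 FPKM in any library.

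In the cGMP list, 2 of 11 tested genes fell and 0 rose (median log2 -0.02), where 2.12% of all tested genes were lower and 3.17% higher. An unadjusted p under 0.05 with limma was found for 2 of the 11, against 19.5% of all genes. Pde1c, a calmodulin-dependent phosphodiesterase of cGMP and cAMP, was at 9.78, 9.07, 11.4, 9.76 and 11.9 FPKM in CKD 1 to CKD 5. In Sham 1 to Sham 5 it was at 14.7, 14.6, 14.5, 14.3 and 13.2 FPKM, above all CKD mice (log2 -0.45, SE 0.08, limma adjusted p = 0.00664). Pde3a, the cGMP-inhibited phosphodiesterase of cAMP, fell from 24.5 ± 3.58 to 18.2 ± 2.44 FPKM (log2 -0.42, SE 0.11, limma adjusted p = 0.0443). CKD 5, at 22.5 FPKM, was inside the Sham range, and leaving out any 1 library other than CKD 5 or Sham 5 ended the call (highest adjusted p = 0.107). Pde2a, which cGMP activates, was at 18.8 ± 0.956 and 20.1 ± 2.62 FPKM (adjusted p = 0.612), and Vasp, a target of the cGMP-dependent kinase, at 15.6 ± 1.89 and 14.3 ± 1.65 (adjusted p = 0.530). Pde5a, which breaks down cGMP, was at 1.19 ± 0.0474 and 1.22 ± 0.181 FPKM, and Prkg1, the cGMP-dependent kinase, at 4.12 ± 0.783 and 3.33 ± 0.663 (adjusted p = 0.332).

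In the list of endothelin peptides and proteases, 2 of 5 tested genes rose and 0 fell (median log2 0.23). Among all tested genes 3.17% were higher and 2.12% lower. An unadjusted p under 0.05 with limma was found for 4 of the 5, against 19.5% of all genes. Furin, a protease that makes the first cuts in the precursor, was at 28.5 ± 1.55 and 26.5 ± 2.52 FPKM (adjusted p = 0.435). Mme, or neprilysin, which degrades endothelin and natriuretic peptides, was at 1.97 ± 0.332 and 2.81 ± 0.637 FPKM (log2 -0.41, adjusted p = 0.101). Downstream of the receptors, 0 of 18 tested signalling genes passed with limma, and 3 had an unadjusted p under 0.05 (median log2 -0.04), against 19.5% of all genes. Rgs5, a regulator of G proteins in pericytes, averaged 105 ± 9.54 FPKM in CKD against 101 ± 11.3 in Sham. Gna12, a G protein alpha subunit, was at 52.5 ± 3.17 and 59.2 ± 4.20 FPKM.

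Markers of the cells that carry these genes were measured alongside. In bulk tissue fewer cells of a type and less RNA per cell cannot be told apart. Of 17 endothelial markers, 1 rose and 0 fell (median log2 0.13), a share near the 5.29% called among all genes. The gene that rose was Cd34, a surface protein of endothelium and of some stromal cells, from 65.3 ± 3.35 to 82.3 ± 6.89 FPKM (adjusted p = 0.0119). Their summed level ran from 630 to 737 FPKM in CKD and from 603 to 670 in Sham. Relative to the mean of these markers, Nos3 was at -1.25 ± 0.135 in CKD and -1.35 ± 0.0701 in Sham (log2, difference 0.10, SE 0.07, exact permutation p = 0.214, adjusted p = 0.429), a difference of 0.06 without CKD 1 and 0.15 without CKD 5. Edn1 relative to them was at -2.80 ± 0.353 and -2.51 ± 0.165 (difference -0.29, SE 0.17, exact permutation p = 0.135, adjusted p = 0.405), and the difference was -0.17 without CKD 3. Of 9 tested genes of endothelial activation and shear response, such as Vcam1 and Klf2, 0 passed with limma and 1 (Icam1) had an unadjusted p under 0.05, against 19.5% of all genes. The mean deviation of this list was -0.44 in Sham 5 and -0.07 to 0.32 in the other Sham mice.

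**Figure D5:**
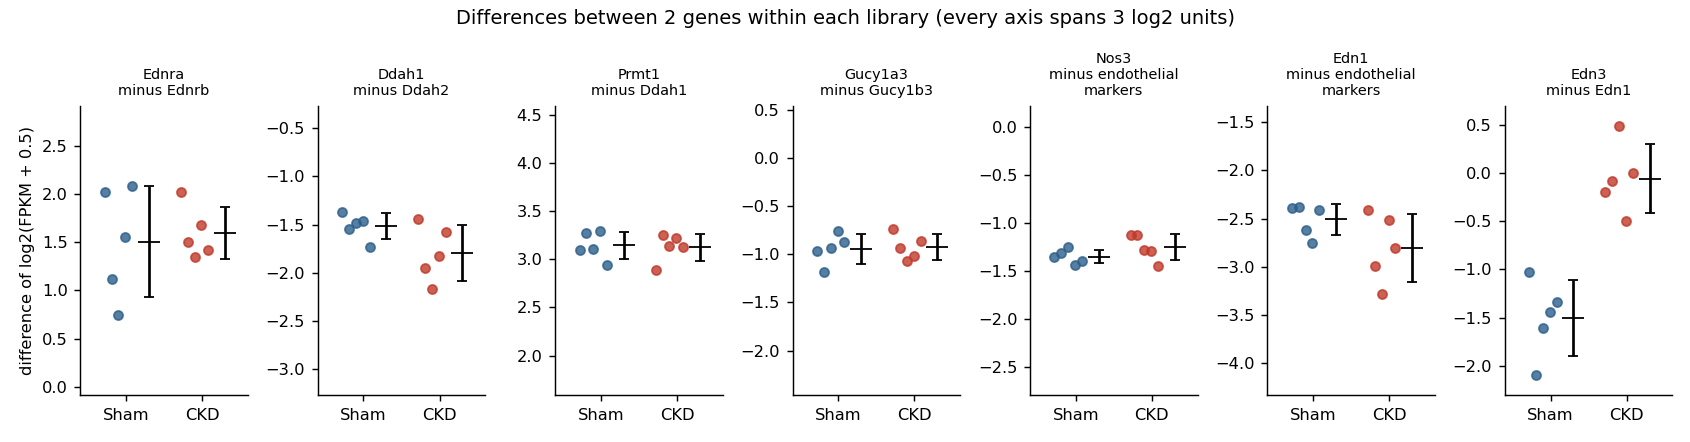
Difference in log2(FPKM + 0.5) between 2 genes, or a gene and the mean of 17 endothelial markers, within each library (points, 5 Sham in blue and 5 CKD in red) with group mean and SD; every vertical axis spans 3 log2 units. The groups overlap in the first 6 panels and are apart only for Edn3 minus Edn1, the comparison added after the rise of Edn3 was seen.

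Fibroblast markers rose in 6 of 12 cases and macrophage markers in 5 of 10, and 0 of either list fell (5 and 4 rose without CKD 1 and Sham 1), where 3.17% of all tested genes were higher and 2.12% lower. The summed fibroblast markers ran from 1323 to 1500 FPKM in CKD and from 1220 to 1315 in Sham, and the macrophage markers from 384 to 557 in CKD and from 273 to 329 in Sham. These lists moved in the direction of Edn3 and Mmp2, and their part in the rise of these genes was not tested. The smooth muscle and pericyte list, cells that carry ETA, had 1 of 14 tested members higher, Mcam (from 18.4 ± 1.90 to 25.9 ± 4.16 FPKM, adjusted p = 0.0234, and 0.0506 to 0.0578 without CKD 3, CKD 5, Sham 1, Sham 2 or Sham 3). Of the 14, 5 had an unadjusted p under 0.05 with limma (19.5% of all genes) and 9 had an estimate above 0 (median log2 0.16). The summed level of the list ran from 429 to 468 FPKM in CKD and from 448 to 474 in Sham. Its most abundant members, Rgs5, Abcc9 and Acta2, weigh most in that sum. Of the cardiomyocyte markers 0 of 13 passed with limma, with 4 at an unadjusted p under 0.05 (19.5% of all genes) and 2 listed genes (Myh6 and Atp2a2) at 0 in all libraries. Without CKD 1 and Sham 1, 2 of these 13 rose and 1 fell. In the atrial and epicardial list 0 of 6 passed, 0 had an unadjusted p under 0.05, and the summed levels overlapped (11.9 to 16.9 FPKM in CKD, 10.6 to 18.5 in Sham). Sham 1 and Sham 5 had the highest mean deviation on that list within their group, 0.48 and 0.41, and were also the Sham mice with the highest Edn3. In CKD the 2 orders matched only in part. CKD 1 had the highest deviation (0.44) and the highest Edn3 (4.58 FPKM). CKD 4 had a low deviation (-0.10) and the lowest Edn3 (3.62 FPKM), and CKD 5 lay between on both (0.25 and 4.37 FPKM). Against this, CKD 3 had the lowest deviation on the list (-0.16) with Edn3 at 4.56 FPKM, and CKD 2 a high one (0.40) with Edn3 at 3.66 FPKM. A link between this list and Edn3 was not tested. Of 10 neuron and Schwann cell markers 3 were abundant enough to test and 0 passed, with none at an unadjusted p under 0.05 and Chat at 0 in all libraries. Over these 3 markers, too, Sham 5 and Sham 1 had the highest mean deviation in their group (0.31 and 0.04). In CKD the lowest was in CKD 4 (-0.20, with Edn3 at 3.62 FPKM) and the highest in CKD 2 (0.04, with Edn3 at 3.66 FPKM). A link of this list with Edn3 was not tested either.

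The genes whose deviations from the group means were most like those of 4 of the genes were looked up among all tested genes. For Nos3 these were Tgfb1i1, Tmem39b and 1700017B05Rik (Pearson r of 0.93, 0.92 and 0.92 over 10 libraries). For Edn1 they included Qtrtd1 and the joined entry Inpp5b,Mir698 (0.97 and 0.89). Ednrb was most like Lrrc8a, Marveld2 and Sdc4 (0.94, 0.94 and 0.93), and Ddah1 most like Pim1, Ube2l6 and Zfp444 (0.95, 0.93 and 0.90). They were taken from the 3 highest correlations of each gene among all other tested genes and are given as a description.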

How the data were processed

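The deposited values are FPKM, 1 column per library, which the authors made from single reads. STAR 2.4.0f1, Cufflinks 2.1.1 and Cuffdiff 2.1.1 and the builds mm10 and hg19 are named, without roles, in the submitters' processing notes. No source used here gives the annotation, strand setting or handling of shared reads. Values in FPKM are not counts, so the reads behind a value, and any interval from them, are unknown, and no count model was used.

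Groups came from the labels' surgery entry. The design text counts 5 mice in each group and calls the controls normal, while the labels enter Sham surgery. Genes with a mean of at least 1 FPKM over the 10 libraries (11651) were analysed as log2(FPKM + 0.5), without further scaling, by limma 3.58.1 in R 4.3.3 (lmFit, eBayes with a variance trend). Its two-sided p-values were adjusted by Benjamini-Hochberg across the 11651 genes, and 0.05 was the threshold. A fold change taken on this scale understates the change of low genes. For within-library differences, all 252 splits of the 10 mice were enumerated in an exact two-sided permutation test (Python 3.11.15), adjusted over the 6 planned. Lists were described by counts and medians only.

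The genes, lists and rules were chosen with earlier results of these data known. The text names all 10 genes, list genes that passed, the 3 most abundant of each pathway list, and the 3 genes most like Nos3, Edn1, Ednrb and Ddah1. Of the genes this rule names, 2 are not reported here. Others, including Edn2, Nos2, Gch1, Slc7a1, Slc7a2, Cav3, Agxt2, Pde5a, Prkg1, Mme, Ece2, Cd34 and Mcam, were named after their values were seen. Positions are from RefSeq (GRCm38.p6). Gucy1a3 and Gucy1b3 matched by synonym. On data simulated for 5 against 5 libraries, with 200 of 11651 genes changed, the gene test recovered 40% of those changed 1.25-fold. It recovered 76% of those changed 1.5-fold, 98% for 2-fold changes and 100% for 3-fold changes, with 7 of 164 calls false. The simulation drew independent normal noise for each gene, without any effect shared across a library. It also changed fewer genes than the 616 called in the real data, so these rates need not hold there. Alternatives were other pseudocounts, filters, scalings (equal totals, quantile, trimmed mean of M values without weights) and variance models, leaving out each library, and leaving out CKD 1 and Sham 1 together.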

Additional observations from a re-analysis of the deposited data

Results flagged for a closer look

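In each group of 5 libraries the highest and lowest value of every tested gene of the set, of Edn3, Mmp2, Pde1c and Pde3a, and of the 6 within-library differences was set against the gap to its neighbour. Of 38 such groups 2 held a library far from the rest, where chance gives about 5% of groups, and neither concerned the 10 genes. Mmp2 in Sham 5 was at 4.86 on the log2(FPKM + 0.5) scale (28.6 FPKM), the highest Sham value, with the other Sham mice between 23.6 and 25.0 FPKM. Without Sham 5 the rise of Mmp2 was 0.42 (log2, limma adjusted p = 0.00233). Pde3a in CKD 5 was at 4.52 on that scale (22.5 FPKM), with the other CKD mice between 16.7 and 17.5 FPKM. Without CKD 5 its difference was -0.50 (log2, adjusted p = 0.0217).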

How the results depend on the processing

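Over 20 alternatives, 177 of 179 estimates for the 9 genes kept their direction and none passed (lowest adjusted p = 0.0526). Ddah1 (0.0107) and Gucy1a3 (0.0092) turned without CKD 3. With 1 library, or both CKD 1 and Sham 1, left out, Ddah1 ran from -0.0798 to 0.0107 and Gucy1a3 from -0.0960 to 0.0092. Likewise Ednra minus Ednrb ran from -0.0987 to 0.234, Prmt1 minus Ddah1 from -0.0713 to 0.0373 and Gucy1a3 minus Gucy1b3 from -0.0379 to 0.0697, and without both libraries the last 2 were 0.0258 and -0.0309. The cause was not tested. Leaving out 1 library, the genes higher in CKD (369 with all) numbered 201 to 384 and those lower (247 with all) 131 to 290. Both counts moved by over 1.5 times without CKD 2, CKD 5, Sham 2, Sham 3 or Sham 4, and the lower count also without CKD 3. Edn3 passed in all 19 alternatives that could test it (log2 1.05 to 1.44) and had no value with a minimum mean of 5 FPKM. Mmp2 and Pde1c passed in all 20. Pde3a was also not called without a filter (adjusted p = 0.0651) or without a variance trend (0.0574). The number of reads behind each value is unknown, which limits the low genes most. No paired analysis was possible because the labels give no number that the groups share.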

Other observations

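The genes whose deviations were most like those of Edn3, looked up after its rise was seen, were Pdlim5, a Z-disc protein (Pearson r of 0.98 over 10 libraries), 1700120C14Rik (0.97) and Tmlhe, an enzyme of carnitine synthesis (0.96). None of the 3 passed between CKD and Sham (limma adjusted p = 0.0785, 0.684 and 0.736). They are the 3 highest correlations among all other tested genes and are given as a description only. For Nos3, Edn1, Ednrb and Ddah1 the highest r was 0.93, 0.97, 0.94 and 0.95.

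Ass1, which makes the precursor of arginine, averaged 1.91 ± 0.568 FPKM in CKD against 1.18 ± 0.0739 in Sham, with no overlap between the groups (log2 0.49, limma adjusted p = 0.0945). Prkcd, a protein kinase C isoform, was at 8.09 ± 0.799 and 6.16 ± 0.851 FPKM, also without overlap (log2 0.37, adjusted p = 0.0532). Cav3, given above, was likewise without overlap and higher in CKD. Others had no overlap with CKD lower. Qdpr, of the nitric oxide synthesis and cofactor list, was at 47.4 ± 1.43 and 52.8 ± 2.71 FPKM (log2 -0.16, adjusted p = 0.0887). Prmt3 was at 8.12 ± 0.202 and 9.04 ± 0.348 FPKM (log2 -0.15, adjusted p = 0.141). All of these were picked after their values were seen, and groups did not overlap for 7.28% of all tested genes. Ass1 passed without CKD 5 (adjusted p = 0.0475), and Prkcd with trimmed-mean scaling (0.0494) and with a robust variance model (0.0481).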
